A study of Oryza sativa with 24 samples.

Results

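In rice seedlings moved to cold, 19 probe sets of 57258 measured stood higher at 6 h than before and lower again at 24 h, on average over 6 accessions. They were chosen on log2(intensity + 32) averaged over 6 accessions, 9311, IRAT109, ZS97, Geng87-304, Youmangzaogeng and Muguanuo. A probe set was taken when 6 h minus before was at least 0.7 and 24 h minus 6 h was at most -0.5, each with the same sign in at least 5 of the 6 accessions. The rule found 21 probe sets, and 2 of them were left out by name because the rule leaves out genes named DREB or CML (DREB1G and CML10). It also leaves out JAZ genes and certain MYB genes, and none of the 21 had such a name. The values of those 6 accessions therefore chose the members, and are given below as a description. Of the 19 members, 7 were paired with 1 gene each, and 12 had no gene in the annotation given. No name could be checked for those 12, so they may include genes that the rule leaves out by name.

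The study measured gene expression on Affymetrix arrays in shoots and leaves of seedlings at the 4-leaf stage, grown in potting soil. The 3 groups were plants before cold, plants after 6 h and plants after 24 h in a chamber at 4 °C with 14 h of light and 10 h of darkness. Each group held 8 arrays, 1 from each of 8 accessions, the 6 above with Lixingeng and MH63. The labels give no transgene, mutant or other treatment, and do not say whether plants were pooled or grown apart. An accession is a named seed stock, and as background 9311, ZS97 and MH63 are indica rice while IRAT109 is an upland japonica.

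Chilling is sensed within minutes by plant cells and is followed by calcium entry and by the induction of transcription factors, of which the DREB1/CBF factors are the best known. Such early regulators often peak and decline while the genes they act on rise later, and a short messenger lifetime lets a transcript fall soon after its synthesis slows. The clock also changes how strongly many cold genes respond, since the same chilling given at another time of day induces them to a different degree. None of the 7 genes paired with members had a name other than its locus number in the tables used here, so no function is given for them.

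Of 276 pairs of arrays, the most alike were Lixingeng from before cold with MH63 from 24 h (Spearman's rho 0.992, next pair 0.981), although their accession and time differ. They are called the mixed pair below, and neither was used to choose members. The array medians lay between 41.7 and 46.6. In all 6 accessions of the rule the upper quartile of the readings was lower at 6 h than before (-9.30 to -2.96 intensity units). The log2 ratio of the 3′ over the 5′ actin controls, which tracks RNA breakdown, was lower at 24 h than at 6 h in 5 of 6 (median -0.45). The ratio itself lay between 2.81 (9311 at 24 h) and 4.31 (Muguanuo at 6 h), so the 3′ end read far above the 5′ end on all 24 arrays. The part of these shifts in the results below was not tested. The leaf markers RBCS, CAB2R, RCA, PORA and PORB were above the array median on all 24 arrays. Of the root markers, LSI2 was above it on 0 and LSI1 and PHT1-8 on 24, and NAS2 on 12. No unchilled array at 6 h or 24 h was analysed here, so cold and time of day cannot be told apart.

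A fall after a rise was uncommon. In all, 457 probe sets (0.798% of those measured) met the first condition of the rule, the rise at 6 h. Of these, 377 (82.5%) stood higher still at 24 h than at 6 h, with a median further change of 0.61, and 253 gained at least 0.5 more in 5 or more of the 6 accessions. The 19 members made up 4.16% of the 457. The opposite course, a drop of at least 0.7 at 6 h followed by a gain of at least 0.5, was seen in 23 probe sets, out of 620 with such a drop.

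**Figure D1:**
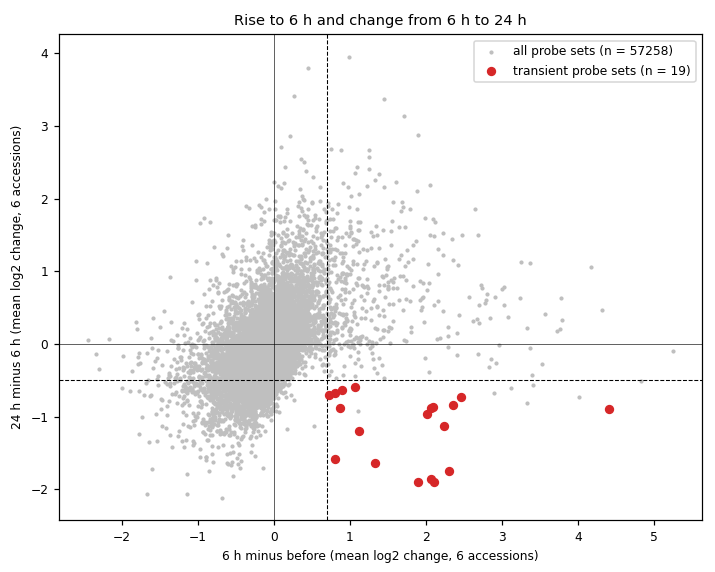
Mean log2 change from before cold to 6 h (x axis) against mean log2 change from 6 h to 24 h (y axis) over 6 accessions, 1 point per probe set, with the thresholds of the rule dashed. The 19 members (red) lie at rises of 0.72 to 4.40 and later changes of -1.90 to -0.59, below most other probe sets that had risen.

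Over the 6 accessions the mean rise of the members ranged from 0.72 to 4.40 with a median of 2.01, and the mean change from 6 h to 24 h from -1.90 to -0.59 with a median of -0.90. Over all probe sets these medians were -0.01 and 0.001. In 15 of the 19 the sign of both changes was the same in all 6 accessions. In limma's fit of all 24 arrays, 17 of the 19 members passed as higher at 6 h than before, beside 2.79% of all probe sets, and 18 as lower at 24 h than at 6 h, beside 10.1%. 0 of the 19 passed the other way, beside 6.96% lower at 6 h and 7.94% higher at 24 h than at 6 h. The rule used both contrasts, so nothing is read from these counts. The 6 arrays at 6 h lay above all 6 before cold for 11 members (0.892% of all probe sets) and above all 6 at 24 h for 5 members (2.14%). The same 5 met both conditions, out of 7 probe sets that did so in the whole table (0.0122%).

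At the edge of the thresholds, the smallest rise was that of OsAffx.20242.1.S1_x_at (0.72) and the smallest fall that of Os.6152.1.S2_at (-0.59). Just outside were Os.23103.1.S1_at (LOC4339209) and Os.18493.1.S1_at (LOC4347764), with changes from 6 h to 24 h of -0.47 and -0.46. On the side of the rise, the nearest was OsAffx.15943.1.S1_x_at at 0.53. A further 5 probe sets met both sizes but fell in 4 of the 6 accessions. They included DREB1A, with a rise of 4.82 and a later change of -0.51, and OsAffx.27442.1.S1_at, with 4.02 and -0.73.

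**Figure D2:**
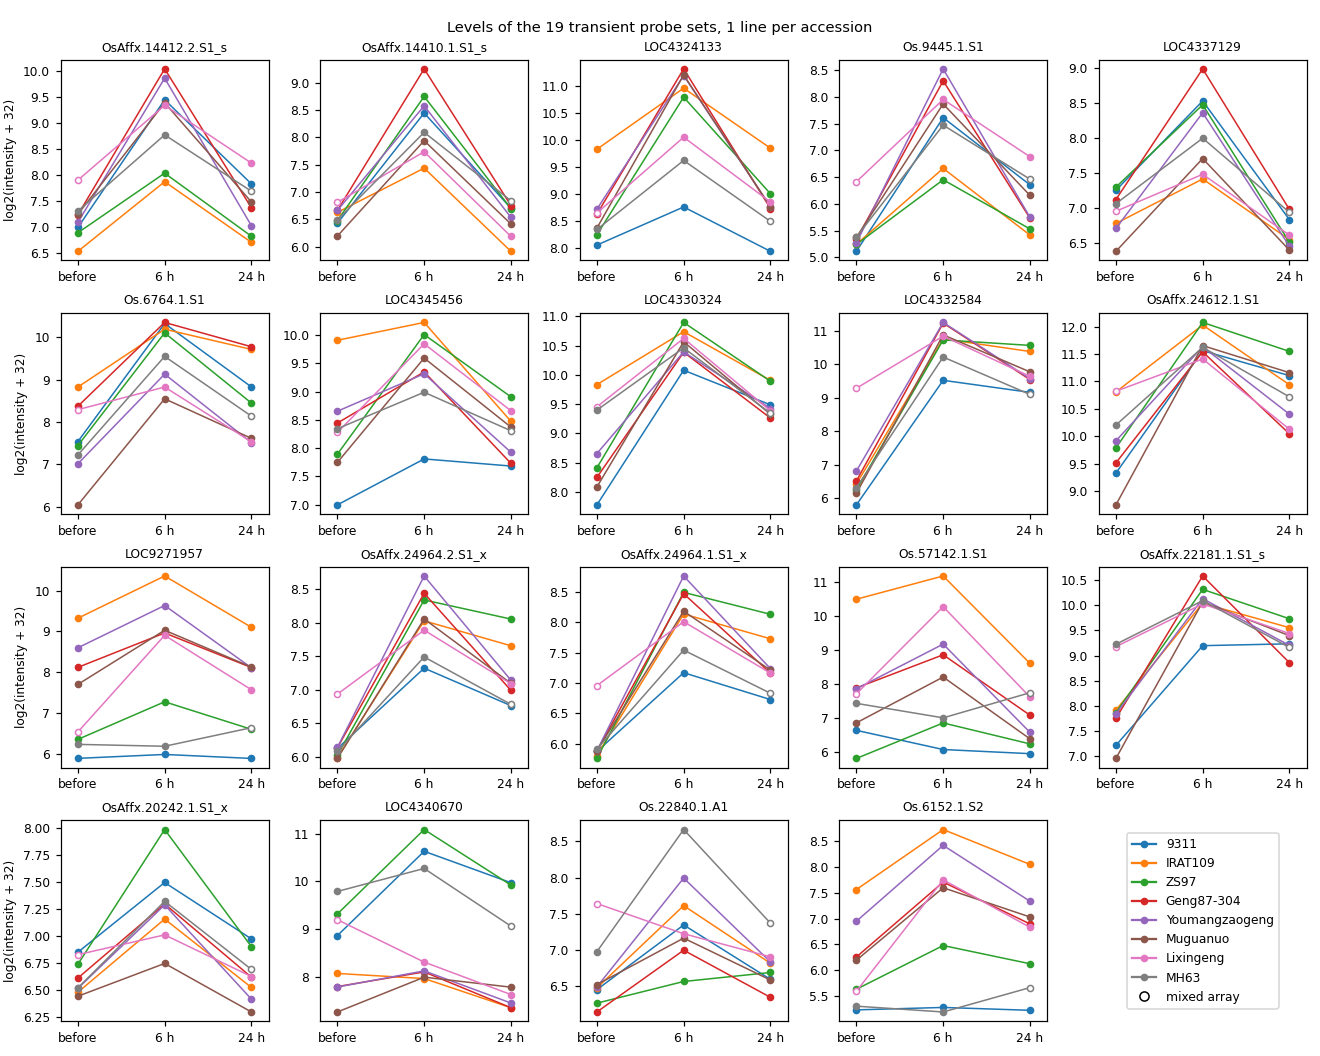
Level of each of the 19 members as log2(intensity + 32) before cold, at 6 h and at 24 h, 1 line per accession, with open circles for the mixed pair of arrays. Most panels peak at 6 h in all 8 accessions. The exceptions are LOC9271957, Os.57142.1.S1_at, Os.6152.1.S2_at, LOC4340670, Os.22840.1.A1_at and OsAffx.22181.1.S1_s_at, which peak at 6 h in some accessions only.

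The members differed in how far they came back. At 24 h the mean level of 11 members was within 0.5 of the level before cold or below it, and that of 7 was still at least 1 above it. In the fit of all 24 arrays, 9 of the 19 passed as higher at 24 h than before cold, beside 13.3% of all probe sets, and 0 passed as lower, beside 19.8%. This contrast is the sum of those in the rule, so the counts are a description. By the means above, the working name for these probe sets, up only at 6 h, does not stand for a full return in each of them. Of the 9 that passed, Os.6152.1.S2_at did not pass as lower at 24 h than at 6 h, and its mean lay within 0.5 of the start. Its call at 24 h versus before did not pass in 4 of 16 other fits. That of Os.9445.1.S1_at did not pass in 7, and that of Os.6764.1.S1_at in 1.

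The clearest return was that of OsAffx.14412.2.S1_s_at and OsAffx.14410.1.S1_s_at, which have no paired gene. In the 6 accessions of the rule, OsAffx.14412.2.S1_s_at read 61.0 to 120.5 before cold (median 100.3), 203 to 1024 at 6 h (654) and 72.7 to 196 at 24 h (116). The arrays at 6 h lay above all others of these accessions. The mean rise was 2.11 ± 0.72 (SD, n = 6) and the mean fall -1.90 ± 0.71, which left 0.21 ± 0.33. OsAffx.14410.1.S1_s_at went from 41.1 to 69.4 (median 62.0) before cold to 141 to 579.7 (334) at 6 h and 28.3 to 75.8 (66.3) at 24 h, again without overlap. Its rise was 1.89 ± 0.61 and its fall -1.90 ± 0.38, so that -0.01 ± 0.38 was left.

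LOC4324133, on chromosome 1, returned as closely but with a wide spread between accessions. Its intensity was 234 to 874 before cold (median 330.3), 400.4 to 2503 at 6 h (2122) and 213 to 886 at 24 h (402). The groups overlapped because IRAT109 was high at all times and 9311 reached only the lowest reading at 6 h. The mean rise was 2.06 ± 0.90 (SD, n = 6), with 0.70 in 9311 and 2.83 in Muguanuo, and the mean fall was -1.86 ± 0.75.

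LOC4337129, on chromosome 4, ended below its starting level. It read 50.9 to 125 before cold (median 92.2), 138 to 477 at 6 h (311) and 51.9 to 93.7 at 24 h (59.9). All arrays at 6 h lay above all others of the 6 accessions. The rise was 1.33 ± 0.43, the fall -1.63 ± 0.45, and the 24 h level lay below that before cold in 5 of 6 accessions (-0.30 ± 0.28, SD, n = 6). In the fit of all 24 arrays this difference did not pass (-0.29, adjusted p = 0.108, limma).

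OsAffx.20242.1.S1_x_at returned as well, and LOC4345456, on chromosome 8, did so only in its mean over accessions. LOC4345456 read 95.4 to 930.0 before cold (median 261), 192 to 1166 at 6 h (681) and 173 to 448 at 24 h (255). Here the accessions did not agree on the end point, which lay above the start in 3 of 6 and below it in 3 (mean -0.09 ± 0.99, SD, n = 6). The lowest rise was 0.32 in IRAT109, which had the highest level before cold, and the highest was 2.12 in ZS97. OsAffx.20242.1.S1_x_at had the least rise, from a median of 62.8 to 125 and back to 63.3, with overlapping groups and 0.02 ± 0.12 left.

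LOC4332584, on chromosome 3, had the greatest mean rise of the members. Before cold it read 23.9 in 9311, 39.0 in Muguanuo, 44.3 in ZS97, 54.3 in IRAT109, 59.7 in Geng87-304 and 80.7 in Youmangzaogeng, near the array medians. At 6 h it read 705 in 9311 and 1669.6 to 2411 in the other 5, and at 24 h 542 to 1487. All arrays at 6 h lay far above all before cold, but overlapped those at 24 h. The rise was 4.40 ± 0.37 (21.2-fold, SD, n = 6), a fold that depends on the offset because the start was dim. The fall was -0.90 ± 0.69. It was deep in Geng87-304 (-1.69), Youmangzaogeng (-1.68) and Muguanuo (-1.11), and small in ZS97 (-0.16), 9311 (-0.36) and IRAT109 (-0.38). The level kept at 24 h was 3.51 ± 0.58, or 79.7% of the rise on the log2 scale, while the median intensity went from 49.3 to 1782 and then 788.

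OsAffx.22181.1.S1_s_at, OsAffx.24964.1.S1_x_at and OsAffx.24964.2.S1_x_at kept 70.5%, 64.5% and 58.6% of their mean rise on the log2(intensity + 32) scale, which is a smaller share of the gain in intensity itself. OsAffx.22181.1.S1_s_at went from 92.5 to 209.7 (median 191) before cold to 555 to 1496 (1062) at 6 h and 432 to 817 (605) at 24 h. OsAffx.24964.1.S1_x_at went from 22.0 to 27.0 (median 26.7) to 112 to 403 (291) and then 73.9 to 249 (118). In both, the readings at 6 h stood clear of those before cold and overlapped those at 24 h. The 2 probe sets of OsAffx.24964 share a cluster number, followed each other across the 24 arrays (Pearson r of their deviations from the time means 0.99) and are not independent. The change of OsAffx.22181.1.S1_s_at from 6 h to 24 h was 0.04 in 9311 and between -1.72 and -0.48 in the other 5 accessions of the rule. Before cold it read 566 in MH63, above all 6 accessions of the rule, and its rise there was 0.86. The Lixingeng array before cold read 546, but it is 1 of the mixed pair, and the MH63 array at 24 h read 540. The rise of 0.85 in Lixingeng rests on that array.

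OsAffx.24612.1.S1_at, Os.6764.1.S1_at and LOC4330324, on chromosome 2, kept 57.3%, 49.6% and 52.2% of their mean rise on the same log2 scale. LOC4330324 read 187 to 879.9 before cold (median 289.7), 1049.7 to 1874 at 6 h (1398) and 581 to 927 at 24 h (670.0). Its readings at 6 h lay above all others of the 6 accessions, and those before cold and at 24 h overlapped. The rise was 2.01 ± 0.61 and the fall -0.96 ± 0.23 (SD, n = 6), with 1.05 ± 0.58 left. OsAffx.24612.1.S1_at, with readings of 398 to 1759 before cold, 2944 to 4282 at 6 h and 1022 to 2959 at 24 h, kept 1.18 ± 0.92. Os.6764.1.S1_at kept 1.11 ± 0.39 of a rise of 2.23 ± 0.53.

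Os.9445.1.S1_at rose from readings under every array median. It read 2.58 to 9.47 before cold (median 6.26), 55.3 to 335 at 6 h (182) and 10.7 to 49.8 at 24 h (21.4). The readings at 6 h lay above all others of the 6 accessions. The rise was 2.30 ± 0.82, the fall -1.74 ± 0.76 and the rest 0.56 ± 0.39 (SD, n = 6), above 0 in 6 of 6 accessions. Most readings before cold and at 24 h were dim, so these sizes depend on the offset. In the fit of all 24 arrays the rise was 2.18, with 2.75 at an offset of 16 and 1.61 at 64, and the rest was 0.61, with 0.89 and 0.39. The call at 24 h (0.61, adjusted p = 0.0219, limma) did not pass in 7 of the 16 other fits, with adjusted p from 0.00615 to 0.127. Among those 7 were the fits without 9311 (0.0784), Muguanuo (0.0576) and MH63 (0.0555).

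**Figure D3:**
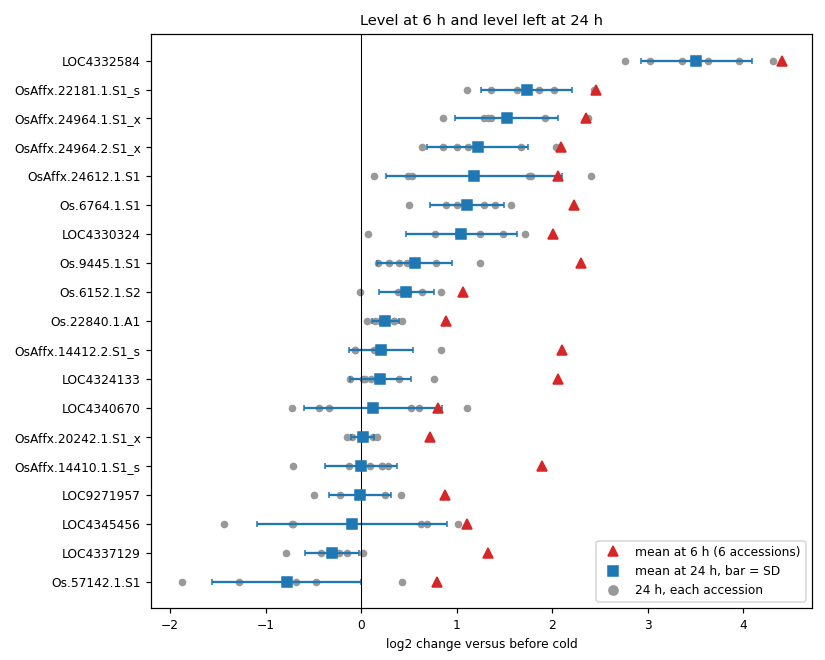
Log2 change versus before cold at 6 h (red triangles, mean of 6 accessions) and at 24 h (blue squares, mean with SD; grey dots, each accession), members ordered by the level left at 24 h. LOC4332584 keeps 3.51 of 4.40, while OsAffx.14410.1.S1_s_at is left at -0.01.

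Another set of members followed the course in some accessions only. LOC9271957, on chromosome 5, read 609, 1278 and 518 in IRAT109 before cold, at 6 h and at 24 h, and 356, 763 and 245 in Youmangzaogeng. In 9311 it read 27.8, 31.9 and 27.7, and in MH63 43.8, 41.4 and 68.5, near or under the array medians, so a course could hardly be measured there. The last MH63 reading is from the mixed pair. ZS97 lay between, at 50.5, 124 and 65.8. Os.6152.1.S2_at, which shares the cluster number of this gene's probe set, had the same pattern (r of deviations 0.98 over 24 arrays), with 5.49, 6.74 and 5.27 in 9311 and 158, 393 and 234 in IRAT109. It was the only member that did not pass as lower at 24 h than at 6 h in the fit of all 24 arrays (-0.50, adjusted p = 0.0600, limma). It passed as higher at 24 h than before (0.56, adjusted p = 0.0211), but not without Muguanuo (0.0627) or without the mixed pair (0.105).

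Os.57142.1.S1_at differed widely between accessions. It read 1409, 2277 and 359 in IRAT109, 205, 434 and 104 in Geng87-304, and 201, 547 and 64.3 in Youmangzaogeng. In 9311 it read 68.3, 35.9 and 30.4, lower at 6 h than before, and in ZS97 24.7, 84.6 and 44.2. The 6 h level did not pass against that before cold in the fit of all 24 arrays (0.86, adjusted p = 0.110, limma), while the fall to 24 h did (-1.42, adjusted p = 0.00430). The rule asked for both changes, so nothing is read from these calls. At 24 h the level lay below that before cold in 5 of the 6 accessions of the rule (-0.78 ± 0.78, SD, n = 6). With all 24 arrays this difference did not pass (-0.56, adjusted p = 0.210, limma). It passed without the mixed pair (-0.96, adjusted p = 0.0145), with the 18 arrays of the rule alone (-0.78, 0.0409) and with array weights (-0.86, 0.0333). This contrast is the sum of those in the rule, and the 18 arrays are those that chose the member. The calls are therefore a description.

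LOC4340670, on chromosome 6, had its peak in 9311 and ZS97. It read 433, 1558 and 973 in 9311 and 606, 2151 and 939 in ZS97 before cold, at 6 h and at 24 h. In Geng87-304, Youmangzaogeng and Muguanuo it went from between 121 and 189 before cold to between 222 and 246 at 6 h, and in IRAT109 it read 236, 217 and 131. In MH63 the readings were 853, 1205 and 502, the last from the mixed pair. The rises were 1.77 and 1.78 in 9311 and ZS97, 0.48 in MH63 and -0.11 to 0.73 in the other 4 accessions of the rule, so the mean of 0.80 ± 0.80 (SD, n = 6) stands for no single accession. The rise did not pass in the fit of all 24 arrays (0.55, adjusted p = 0.170, limma), and the fall did (-0.75, adjusted p = 0.0322). Without the mixed pair the rise was 0.76. The rule asked for both changes, so nothing is read from these calls. Os.22840.1.A1_at, with a median of 56.1 before cold, 121 at 6 h and 67.6 at 24 h, had its greatest rises in MH63 (1.69) and Youmangzaogeng (1.51) and its least among the 6 in ZS97 (0.30).

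The accessions that the rule did not use give the same measure in other samples. In MH63 the arrays before cold and at 6 h, and in Lixingeng those at 6 h and 24 h, are outside the mixed pair, and the comparisons share no array. With 1 pair of arrays each there is no test. In MH63, 16 of the 19 members were higher at 6 h than before (39.9% of all probe sets), and 14 by at least 0.7 (0.943%). The members' median change was 1.28, and over all probe sets -0.03. The 3 members that were not higher were LOC9271957 (-0.05), Os.6152.1.S2_at (-0.11) and Os.57142.1.S1_at (-0.42).

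In Lixingeng, 19 of the 19 members were lower at 24 h than at 6 h (45.0% of all probe sets), and 17 by at least 0.5 (4.17%). The median change was -1.11, and over all probe sets 0.02. Both sizes, in MH63 and in Lixingeng, were met by 12 of the 19 members, as against 28 of 57258 probe sets (0.0489%). Of the 436 other probe sets that met the first condition of the rule and not the second, 98.9% were higher at 6 h in MH63, and 16.1% were lower at 24 h than at 6 h in Lixingeng. LOC4332584 read 47.9 and 1161 in MH63 before cold and at 6 h, a rise of 3.90, and 1808 and 767 in Lixingeng at 6 h and 24 h, a change of -1.20. Os.57142.1.S1_at had the deepest fall in Lixingeng, from 1206 to 165 (-2.65).

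**Figure D4:**
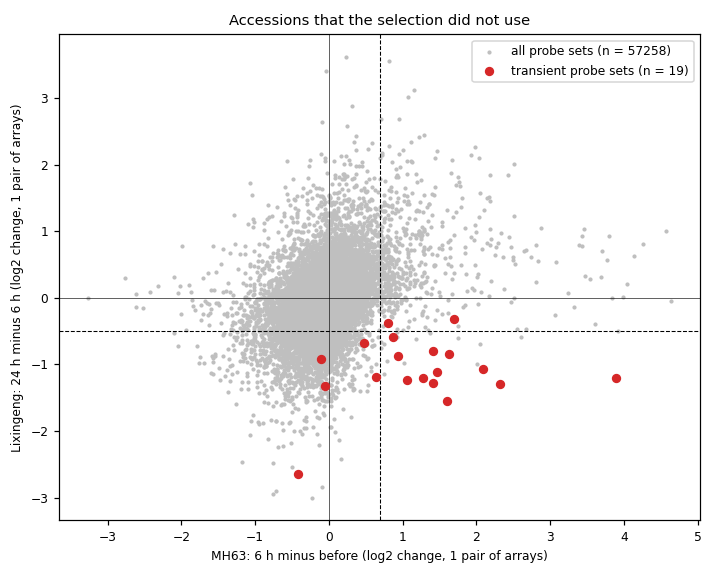
Log2 change from before cold to 6 h in MH63 (x axis) against that from 6 h to 24 h in Lixingeng (y axis), 1 pair of arrays each, 1 point per probe set, with the sizes of the rule dashed. Of the 19 members (red), 12 lie in the lower right field, which holds 28 of all 57258 probe sets.

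Limma's fit of the 6 arrays of Lixingeng and MH63, the mixed pair included, called 0 members at an adjusted p under 0.05, and 0 of all probe sets, for 6 h versus before and for 24 h versus 6 h. At an unadjusted p under 0.05, 14 of the 19 were higher at 6 h than before (1.43% of all probe sets) and 14 were lower at 24 h than at 6 h (2.01%). For OsAffx.14412.2.S1_s_at the change at 6 h was 1.45 (adjusted p = 0.466, limma), for LOC4324133 1.34 (adjusted p = 0.542) and for LOC4332584 2.73 (adjusted p = 0.883). The last of these takes in the Lixingeng array before cold, on which LOC4332584 already read 593 against 23.9 to 80.7 in the 7 other accessions.

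The accessions also differed in level, which the rule did not ask for. By a moderated F test of the accession term, 12 of the 19 members differed between accessions at an adjusted p under 0.05, beside 54.3% of all probe sets, a share near that of the members. The strongest differences were those of LOC9271957 (adjusted p = 2.44e-07, limma), Os.6152.1.S2_at (1.24e-06), LOC4340670 (1.79e-05) and Os.57142.1.S1_at (0.000119). Before cold, LOC9271957 read 609 in IRAT109 and 27.8 in 9311, Os.57142.1.S1_at 1409 in IRAT109 and 24.7 in ZS97, and LOC4340670 606 in ZS97 and 121 in Muguanuo. For the first pair of probe sets the low readings lay under the array medians, so no fold is given. Among the 6 accessions of the rule, IRAT109 was the highest before cold for 9 of the 19 members, Muguanuo the lowest for 8 and 9311 the lowest for 7. LOC4332584 did not pass (adjusted p = 0.133), but did without the mixed pair (0.0279) and without Lixingeng (0.0217).

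The size of the course varied between accessions too. The median rise over members was 1.14 in IRAT109 and 1.30 in 9311, and 1.74 to 2.12 in Youmangzaogeng, Geng87-304, Muguanuo and ZS97. Among these 6, 9311 had the lowest rise for 8 members and IRAT109 for 7. The median change from 6 h to 24 h was -1.53 in Youmangzaogeng and -1.50 in Geng87-304, against -0.97 to -0.56 in the other 4. The deepest fall was in Youmangzaogeng for 8 members and in Geng87-304 for 6. Several members share a cluster or a pattern, and each accession has 1 array per time, so these orders are a description with no error.

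**Figure D5:**
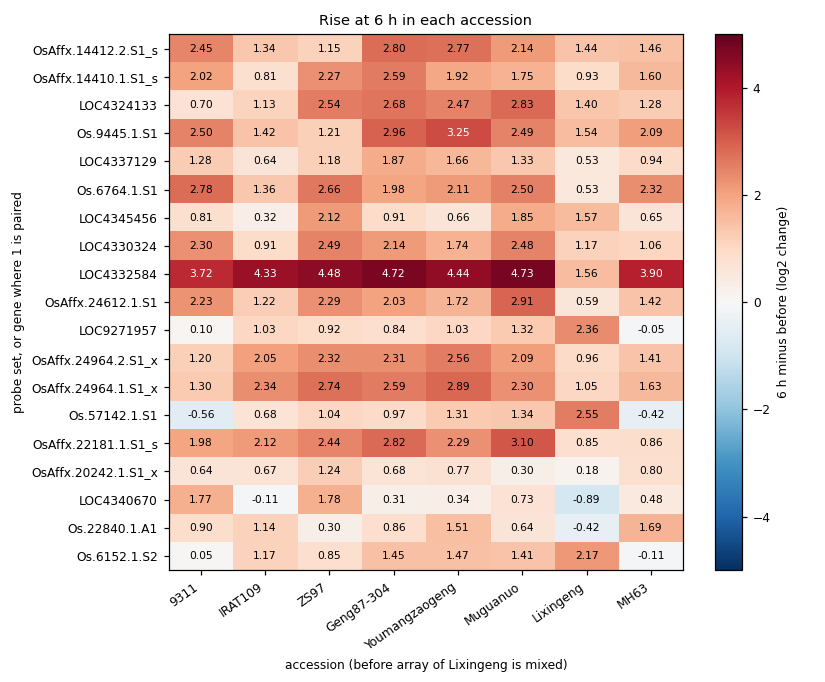
Log2 change from before cold to 6 h for each member (rows) in each of 8 accessions (columns), with the value printed and red for higher. Rises fill most cells, with 9311 and MH63 near or under 0 for LOC9271957, Os.57142.1.S1_at and Os.6152.1.S2_at. Lixingeng is under 0 for LOC4340670 (-0.89) and Os.22840.1.A1_at (-0.42). All changes in the Lixingeng column start from its array before cold, 1 of the mixed pair, and may not be those of this accession.

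Some members had like readings, in pairs or in larger groups. Over the 24 arrays, as deviations from the time means, the Pearson r was 0.94 for OsAffx.14412.2.S1_s_at and Os.9445.1.S1_at, 0.80 for OsAffx.14410.1.S1_s_at and LOC4337129, 0.80 for LOC4330324 and OsAffx.24612.1.S1_at, 0.81 for LOC4324133 and Os.6152.1.S2_at, and 0.86 for LOC4332584 and OsAffx.24964.1.S1_x_at. LOC4324133, LOC9271957, Os.6152.1.S2_at, Os.57142.1.S1_at and LOC4345456 were all alike (r 0.60 to 0.98). So were LOC4332584, both members of OsAffx.24964 and OsAffx.22181.1.S1_s_at (0.56 to 0.99). For LOC4340670 the r was negative with LOC9271957 (-0.86), Os.6152.1.S2_at (-0.83) and Os.57142.1.S1_at (-0.60). All of these values take in the mixed pair. On the Lixingeng array before cold, LOC4332584 and OsAffx.24964.1.S1_x_at were both high. So were OsAffx.14412.2.S1_s_at (208, next highest 127) and Os.9445.1.S1_at (53.2, next highest 9.65). The 24 arrays share accessions, and the tables used here do not say whether such probe sets measure the same transcript.

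Other probe sets with a member's cluster number mostly did not move. Of the 8 with the number OsAffx.24964, OsAffx.24964.1.S1_s_at changed by 0.91 and then -0.42, just outside the rule, and the other 5 that are not members changed by -0.10 to 0.04 at 6 h. Among these, OsAffx.24964.2.S1_at and OsAffx.24964.2.S1_s_at changed by -0.08 and -0.07 at 6 h, although they share the full number of the member OsAffx.24964.2.S1_x_at. Likewise, OsAffx.20242.1.S1_at changed by 0.05 and -0.04, beside the member OsAffx.20242.1.S1_x_at. OsAffx.14412.1.S1_at, a dim probe set, changed by 0.47 and -0.05. Os.6764.2.S1_at (LOC4333735) went the other way from Os.6764.1.S1_at, with -1.17 at 6 h and -0.65 from 6 h to 24 h. The 7 member genes had no other probe set with a single paired gene.

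The 7 member genes lie on 7 different chromosomes in the RefSeq order of genes. Of their 14 nearest neighbours in that order, 10 were measured, and 2 of these had mean rises of at least 0.7 at 6 h. Of all 17905 measured genes, 259 met the first condition of the rule. LOC4324132, beside LOC4324133, rose (0.89 over 8 accessions, adjusted p = 2.74e-05, limma) and did not pass for 24 h versus 6 h (adjusted p = 0.666). LOC4337127, beside LOC4337129, rose as well (1.23, adjusted p = 1.34e-06), with 0.217 for 24 h versus 6 h. LOC4324134, on the other side of LOC4324133, fell by 1.15 at 6 h (adjusted p = 3.17e-06). For 24 h versus 6 h, LOC4345455, beside LOC4345456, passed (adjusted p = 0.00680, limma), with a mean change of -0.24 over the accessions of the rule. So did LOC4332583, beside LOC4332584 (0.0419, mean change -0.18).

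Genes whose symbol or synonym names a stress family were compared through their probe set with the highest mean. Genes with only a locus number were not counted, so the family sizes below are those of named genes, not of whole families. Among 17905 measured genes, 259 met the first condition of the rule, and 224 of these were higher at 24 h than at 6 h (median further change 0.75). The 4 NAC factors that met it, of 8 named and measured, were all higher at 24 h (median 1.01). So were 3 of 3 heat shock factors and proteins (1.56) and 2 of 2 protein phosphatases 2C (1.18), which dephosphorylate signalling proteins. Of 8 such calcium signalling genes, 7 were higher at 24 h (0.32). Of the 4 AP2/ERF factors that met it, a family that takes in the DREB1 genes, 1 was higher at 24 h (median -0.30); differences between families were not tested. Of the WRKY factors, 2 of 6 met the first condition, as did 2 of 10 MYB factors, 1 of 13 bHLH factors, 1 of 16 mitogen-activated kinase cascade genes, 2 of 18 jasmonate synthesis genes and 2 of 30 cytochromes P450. All of these were higher at 24 h except 1 MYB factor. In the fit of all arrays, 5 of 13 AP2/ERF factors rose and 1 fell at 6 h, and 4 of 8 NAC factors rose and 0 fell. Over all 17905 measured genes, 711 rose and 2524 fell at 6 h. The lists were read from symbols and synonyms, and no member has a name other than a locus number. They therefore cannot say which family a member belongs to.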

How the data were processed

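Gene expression was measured on Affymetrix arrays, 24 in all, with total RNA extracted with TRIzol and biotinylated cRNA, per the labels' protocols. The authors deposited 1 linear intensity per probe set and array. How they summarised and scaled it is not stated in the labels used here. The table held 57381 probe sets, of which 123 controls were left out. Fold changes on log2(intensity + 32) understate the change of dim probe sets.

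Groups and accessions were read from the labels. Members and lists were chosen with earlier results of these data known. Names were taken by symbol or synonym from the annotation given (22436 probe sets with 1 gene, 95 with several, 34727 unlisted) and from RefSeq (ASM3414082v1), used for names and gene order only. The rule for named genes took members with 1 paired gene, the 3 without a gene of greatest height (the smaller of rise and fall), and those at the thresholds. The other members were named after their values were seen, so that all 19 are accounted for.

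Fits used limma 3.58.1 (R 4.3.3; lmFit, eBayes with trend), with time and accession as terms, and Benjamini-Hochberg adjustment over 57258 probe sets. Arrays of 1 accession deviated together (24 pairs, lowest r 0.248, 0.652 within the 6 accessions of the rule), so accession was a block. P-values measure only the spread between these samples, which may be technical. The number of arrays limits the precision. In whole-shoot RNA, fewer cells of a type and less RNA per cell cannot be told apart. The fit was tested on simulated data. Promoter motifs and families that need gene descriptions were not analysed here. Python 3.11.15, pandas 2.3.3 and numpy 2.4.6 made tables and plots.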

Additional observations from a re-analysis of the deposited data

Results flagged for a closer look

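Each member was checked for an array far from the other 7 of its time point, over 57 sets of 8 arrays. Such a gap arises by chance in about 1 of 20 sets (5%), and 7 were seen. The Lixingeng array before cold, 1 of the mixed pair, stood above the other 7 in 4 of them. It read 593 for LOC4332584 (next highest 80.7), 53.2 for Os.9445.1.S1_at (9.65), 92.2 for OsAffx.24964.1.S1_x_at (28.1) and 90.2 for OsAffx.24964.2.S1_x_at (38.4). IRAT109 before cold was far above the rest for LOC4324133 (874, next 388) and for Os.57142.1.S1_at (1409, next 205). At 6 h, 9311 was far below the rest for OsAffx.22181.1.S1_s_at (555, next 1009).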

How the results depend on the processing

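The rule found 19 probe sets as reported, and 30 with looser thresholds of 0.5 and -0.35, which held all 19. Stricter thresholds of 1.0 and -0.7 left 13. Leaving out any 1 of the 6 accessions gave between 18 and 24 probe sets. LOC4340670 was lost without 9311 or ZS97, OsAffx.20242.1.S1_x_at without ZS97, Os.6152.1.S2_at without Youmangzaogeng, and Os.57142.1.S1_at without Youmangzaogeng or Muguanuo. With an offset of 64, OsAffx.20242.1.S1_x_at and Os.6152.1.S2_at were lost, and quantile normalization and equal medians changed no member. The 16 and 19 members that moved as in the rule in MH63 and Lixingeng were the same in number under all 5 alternatives tried. Leaving out dim probe sets, 1 of the alternatives for each count here, removed no member and so could not change any count. The count of members higher at 24 h than before was 9, with 6 to 9 under the alternatives, 6 with no replicate block (accession left out of the fit) and 8 without the mixed pair. The count with an accession difference was 12, with 10 to 14. The fit of the 6 arrays of Lixingeng and MH63 called 0 members under each of its alternatives, and without 1 of these accessions it could not be fitted. Dim readings limit Os.9445.1.S1_at, OsAffx.24964.1.S1_x_at and, in 9311 and MH63, LOC9271957. The fit of only the 18 arrays of the rule was chosen after seeing the data.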
